A study of Mus musculus with 38 samples.

Results

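Leptomeningeal fibroblast-like nuclei were picked out of single-nuclei RNA-seq of mouse cortex by their unique molecular identifiers (UMIs, 1 for each captured RNA molecule). A nucleus was taken as a member when its UMIs for Bnc2, Cped1, Slc6a20a, Slc6a13 and Eya2 summed to at least 5 and exceeded each of 6 other sums, for excitatory neurons (Slc17a7, Neurod6), inhibitory neurons (Gad1, Gad2), astrocytes (Gli3, Acsbg1, Slco1c1, Slc7a10, Fgfr3), oligodendrocytes (Mog, Mag, St18, Prr5l), oligodendrocyte precursor cells (OPCs: Pdgfra, Vcan, Cspg4) and microglia (Inpp5d, Siglech, Runx1, Ikzf1). This gave 163 members among 14296 barcodes. The members were selected on the measured levels of these genes, so what follows on their own identity is a description with no test.

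The 4 libraries each came from the cortex of 1 mouse aged 3 months, from which 8500 sorted nuclei were loaded for 10x 3′ sequencing. The knockout (KO) animals 60 and 73 were Emx1-Cre +/-; Trim28-fl +/+, with both Trim28 alleles excised. The control animals 64 and 65 were Emx1-Cre +/-; Trim28-fl +/-, with 1 allele excised, so all 4 carried Cre and at least 1 floxed allele; a figure legend of the study calls the controls Cre-negative, which differs from the sample labels. The sires also carried a gtRosa reporter allele, and which of the 4 animals inherited it is not given in the sources used here. Emx1-Cre acts in the progenitors of the dorsal forebrain, whose descendants include cortical excitatory neurons and astrocytes but not microglia or most inhibitory neurons.

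The leptomeninges are the thin inner coverings of the brain, the arachnoid and the pia. Their fibroblasts lay down collagens and laminins of the basement membrane at the brain surface, move organic ions and amino acids between cerebrospinal fluid, blood and brain, and release signals such as retinoic acid and bone morphogenetic proteins. They derive from neural crest and mesoderm rather than from the neuroepithelium. Trim28 is a corepressor that KRAB zinc finger proteins bring to DNA, where it directs the silencing mark H3K9me3.

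Of the 163 members, 43 came from 3799 barcodes of KO 60, 40 from 3871 of KO 73, 38 from 3496 of control 64 and 42 from 3130 of control 65. They were 1.08% ± 0.0697 (SD, n = 2) of the KO nuclei and 1.21% ± 0.180 (SD, n = 2) of the control nuclei. The 1.13% and 1.03% of the KO animals did not separate from the 1.09% and 1.34% of the controls (exact permutation test, two-sided, p = 0.667, where the smallest p for 2 against 2 is 0.333). The median member held 2849 UMIs in KO 60, 2433 in KO 73, 2574 in control 64 and 3551.5 in control 65. These depths also overlapped between the genotypes (exact permutation test, two-sided, p = 0.667), and they were well below the median of 7753 to 8390 UMIs over all nuclei of the same libraries. Members were closer in depth to microglia (median 1778.5 UMIs) and astrocytes (median 3709 UMIs) than to excitatory neurons (median 13194 UMIs). The libraries shared 36 barcodes, none of them a member, and the doublet caller Scrublet marked 207 barcodes (1.45%), none of them a member.

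The sum over the 5 genes had a median of 17 UMIs, quartiles of 11 and 26 and a maximum of 67. At the edge of the rule, 14 members had a sum of exactly 5, while 18 nuclei with a sum of 4 met every other condition and stayed outside. A further 4 nuclei reached 5 UMIs but did not exceed another sum, the astrocyte sum in 2 of them. UMIs came from 1 of the 5 genes in 9 members, from 2 in 24, from 3 in 78, from 4 in 37 and from all 5 in 15. Pdgfra and Vcan, both in the OPC sum, are also expressed by fibroblasts, so the rule is stricter on nuclei rich in them.

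Each gene of the rule did not mark the same nuclei. Cped1, a cadherin-like and PC-esterase domain protein, had a UMI in 93.9% of members (95% exact binomial interval 89.0 to 97.0%) and in 0.140% of microglia. It was not absent from other classes: astrocytes held 113, 97, 137 and 75 of its UMIs in KO 60, KO 73, control 64 and control 65. Slc6a20a, a proline transporter, was found in 64.4% of members and 0.279% of microglia, and Eya2, a transcriptional coactivator and phosphatase, in 63.8% and 0.279%. The zinc finger protein Bnc2 was found in 48.5% of members and 1.82% of microglia. The GABA transporter Slc6a13 was found in 44.8% of members and in 0 of 716 microglia, for which the exact binomial upper bound is 0.514%. Slc47a1, an organic cation exporter that the rule did not use, was found in 25.2% of members and 0 microglia. With every nucleus thinned to 1000 UMIs, which left out 1 member and 5 microglia, the shares among members were 80.9% for Cped1, 54.3% for Slc6a20a, 43.8% for Eya2, 40.1% for Bnc2, 32.1% for Slc6a13 and 20.4% for Slc47a1. All these intervals cover counting error only. Microglia were picked by a sum above that of the rule genes, which in part sets their low shares of those genes. Prostaglandin D synthase Ptgds, often taken as a meningeal gene, did not single the members out, with a UMI in 76.1% of them, 28.5% of microglia and 81.2% of oligodendrocytes.

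The level of some of these genes varied several fold between animals of 1 genotype. Levels are given as CPM, the UMIs of a gene summed over the members of an animal, divided by all their UMIs and scaled to a total of 1000000. Bnc2 had 303 UMIs (2138 CPM) in KO 60, 140 (1156 CPM) in KO 73, 56 (402 CPM) in control 64 and 393 (2086 CPM) in control 65. Slc47a1 had 176 UMIs (1242 CPM) in KO 60, 10 (82.6 CPM) in KO 73, 36 (258 CPM) in control 64 and 204 (1083 CPM) in control 65. Both genes were thus high in KO 60 and control 65 and low in KO 73 and control 64. Cped1 was even, at 2082, 1775, 1794 and 1677 CPM in the same order, against 92.9, 74.3, 104 and 89.0 CPM in astrocytes. Slc6a20a ran the other way from Bnc2, at 1037 CPM in KO 60, 1990 in KO 73, 1478 in control 64 and 897 in control 65. Slc6a13 stood at 388 and 438 CPM in the KO animals and 237 and 223 CPM in the controls.

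Beyond the rule, a set of genes stood above the other classes in the summed members of every animal. Among the 3255 genes with at least 40 UMIs over the members, 178 lay above the highest of the 6 other classes by a log2 ratio over 1 in every animal, and 38 by one over 3 (ratios of CPM with 10 added). The 20 genes with the largest ratio in their least favourable animal were Bmp6, Zic1, Slc22a8, Uaca, 9530026P05Rik, Colec12, Foxd1, Tbx18, Col1a2, Aox3, Cgnl1, Dcn, Tbx15, Tbx3os1, Bmp5, Lama1, Slc13a4, Nid1, Zic4 and Aldh1a2. Their lowest log2 ratio ran from 4.66 for Bmp6 down to 3.42 for Aldh1a2. They were not found in every member: the nuclei with a UMI ran from 35 of 163 for Tbx3os1 to 136 for 9530026P05Rik. The genes Uaca (a UMI in 103 members), Colec12, a scavenger receptor (104), Cgnl1, a junction protein (69), Aox3, an aldehyde oxidase (50), and the RNAs 9530026P05Rik and Tbx3os1 belonged to none of the gene lists described next.

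**Figure D1:**
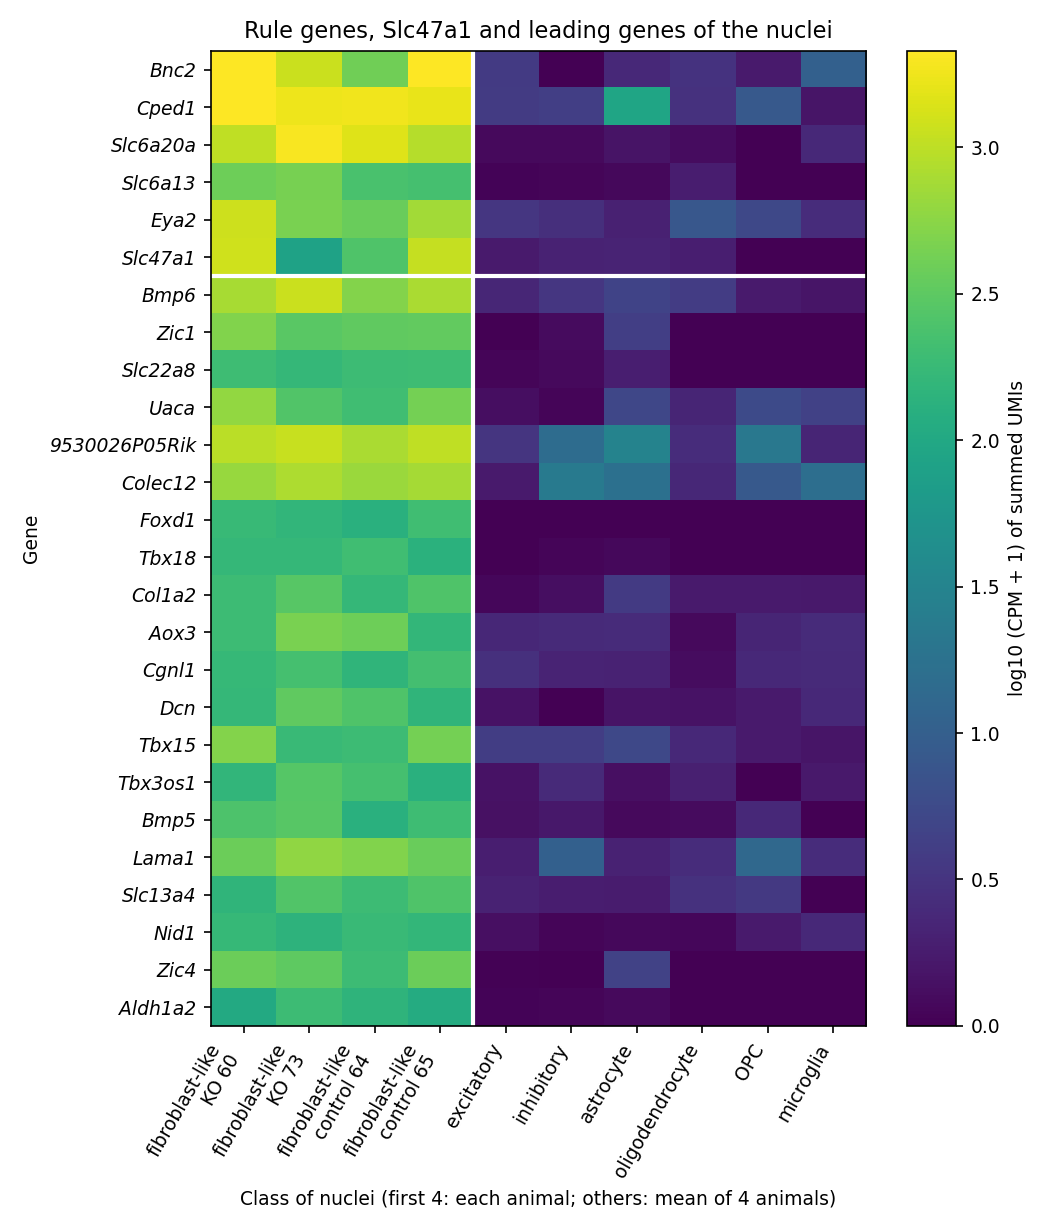
CPM of summed UMIs, as log10 (CPM + 1), for the 5 genes of the rule and Slc47a1 (above the white line) and the 20 leading genes (below it). The first 4 columns are the members of each animal and the other 6 are the means over the 4 animals of the other classes; the leading genes are bright in all 4 animals and dark elsewhere, while Slc47a1 is dim in KO 73 and control 64.

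Among signals, Bmp6, a bone morphogenetic protein, stood at 783, 1172, 509 and 796.2 CPM in KO 60, KO 73, control 64 and control 65 and had a UMI in 99 members. Bmp5 of the same family stood at 254, 289, 129 and 196 CPM. The transcription factors were of the Zic, T-box and forkhead families, which act in the mesenchyme of the developing head and meninges. Zic1, a zinc finger factor, was the most widespread of them, with a UMI in 118 members (72.4%) and 501, 297, 330 and 334 CPM. Zic4 was found in 94 members, Tbx15 in 78, the forkhead factor Foxd1 in 68 and Tbx18 in 60. The listed factors Foxc2, Tcf21, Bnc1, Meox1 and Meox2 had no UMI in any member. Foxc1, a forkhead factor that meningeal development requires, had 7, 20, 8 and 17 UMIs, in 41 members.

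The matrix genes among the 20 were Col1a2, Dcn, Lama1 and Nid1. Lama1, the laminin chain of the pial basement membrane, stood at 381, 595, 495 and 366 CPM in KO 60, KO 73, control 64 and control 65, in 70 members. Col1a2, a chain of type I collagen, stood at 191, 289, 165 and 255 CPM, also in 70 members, and Nid1, a basement membrane linker, at 169, 140, 179 and 159 CPM. Fibronectin Fn1 (lowest log2 ratio 2.77, in 45 members), the matrix Gla protein Mgp (2.63, in 52) and the collagen Col8a1 (2.26, in 40) also stood above every other class in each animal. Lama2 had UMIs in 125 members but did not stand out, since another class was higher in at least 1 animal (lowest log2 ratio -0.60). The small proteoglycan Dcn, at 162, 330, 258 and 149 CPM, was higher in KO 73 and control 64 than in KO 60 and control 65.

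The solute carriers of the members have substrates that include organic anions, sulfate, amino acids and cations. Slc22a8, an organic anion transporter, was nearly even at 198, 165, 194 and 196 CPM, and its neighbour in the family Slc22a6 stood at 106, 198, 165 and 63.7 CPM. The sulfate transporter Slc13a4 stood at 148, 264, 194 and 255 CPM. Slc7a11, the cystine and glutamate exchanger, was uneven, at 854 CPM in KO 60, 2279 in KO 73, 2031 in control 64 and 690 in control 65. It was thus high in the animals that were low in Bnc2 and Slc47a1. Aldh1a2, an enzyme that makes retinoic acid, had 15, 23, 20 and 21 UMIs in 47 members, and the retinoic acid receptor Rarb was found in 75 members. Airn, the long RNA of the imprinted Igf2r locus, was above every other class in each animal (lowest log2 ratio 2.11) and stood at 466, 479, 438 and 552 CPM.

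The UMIs of the leading genes fell into different nuclei. Of the 79 members with a Bnc2 UMI, 41 (51.9%) also had one for Slc47a1 and 44 had one for Fn1, against 0 and 1 of the 84 members without Bnc2. Slc6a20a showed the reverse, with a UMI in 32.9% of the members with Bnc2 and 94.0% of those without. This is in part set by the rule, since a member without Bnc2 had to reach 5 UMIs through the other rule genes, Slc6a20a and Cped1 among them. The members without Bnc2 also include 26 mural-like nuclei, described below, of which 24 had Slc6a20a. Slc7a11 was found in 20 of the 79 and 55 of the 84, and Lama1 in 18 and 52. Cped1 (75 and 78), Zic1 (59 and 59) and Bmp6 (50 and 49) were found in both sets alike.

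When only the members were clustered with Seurat, they separated into 5 subsets, named here mainly by their leading genes. The largest, of 56 nuclei, was led by Cemip, a hyaluronan-degrading protein, and Slc7a11. Slc7a11 had a UMI in 53 of its nuclei, Lama1 in 51, Dcn in 40, Col4a6 in 41 and Igfbp2 in 37, whereas Bnc2 was found in 2 and Slc47a1 in 0. Most UMIs of Aox3 (158 against 9 in the other 107 members) and Dcn (106 against 21) lay in this subset. The second, of 46 nuclei, was led by Slc47a1, Col25a1 and the bicarbonate transporter Slc4a10. It is called the Slc47a1 and Bnc2 subset below, although Bnc2 was not among its 25 leading genes. Bnc2 was found in all 46, Eya2 in 44, Tbx15 in 39, Slc47a1, Fn1 and Mgp in 38 each, and Slc26a7 in 33, but Slc6a20a and Slc6a13 in 1 each and Lama1 in 2. In the Cemip and Slc7a11 subset, by contrast, Fn1 was found in 1 nucleus and Slc26a7 in 0.

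A further subset, of 24 nuclei, was led by the imprinted gene Nnat and Rspo2, with Ranbp3l, the channel Trpm3 and Ptgds also among its leading genes. Ptgds had 1606 UMIs in these 24 nuclei against 1461 in the other 139, and Trpm3 2394 against 1950. These nuclei had both Bnc2 (23 of 24) and Slc6a20a (24 of 24), together with Slc6a13 in 21, Slc22a8 in 22 and Slc13a4 in 20, and none had Slc47a1. Cped1, Zic1, Tgfbr3 and Foxd1 had UMIs in all 3 of these subsets, with Zic1 at 489, 416 and 453 CPM in the order given. Since the clusters were made from these genes, the differences between subsets are descriptions.

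**Figure D2:**
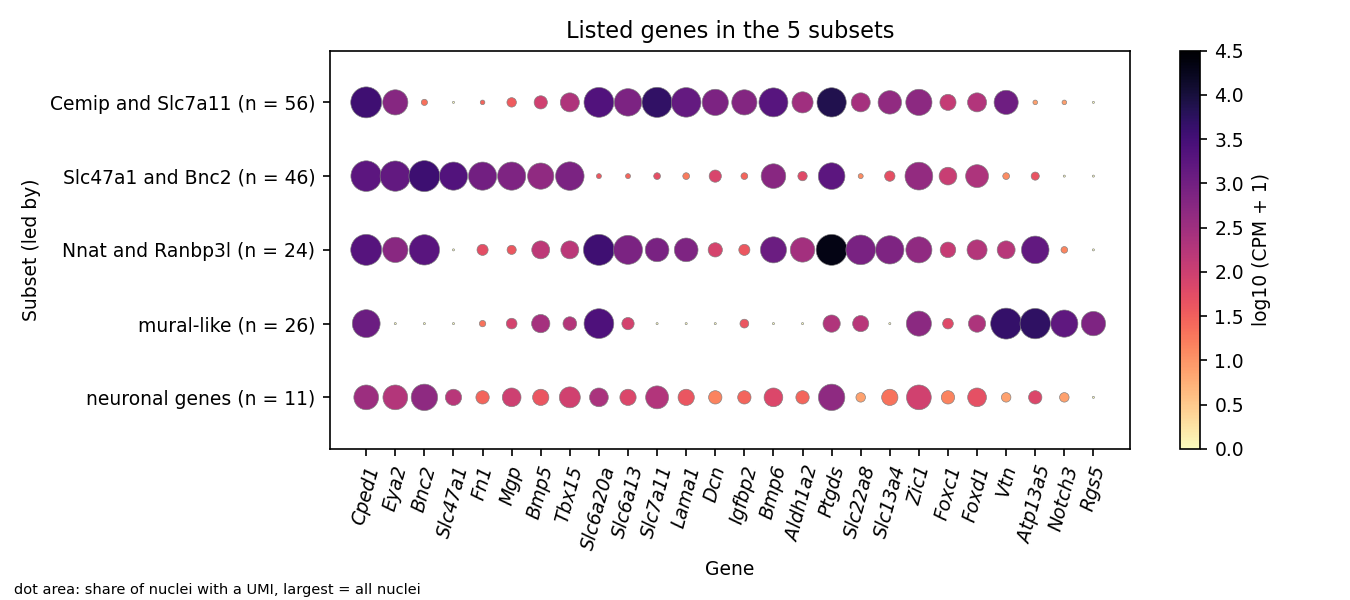
Listed genes in the 5 subsets of members, with colour as log10 (CPM + 1) of the summed UMIs and dot area as the share of nuclei with a UMI. Cped1 and Zic1 span the subsets, Slc47a1, Fn1 and Mgp are large in the subset named for Slc47a1 and Bnc2, and Vtn, Atp13a5, Notch3 and Rgs5 mark the mural-like nuclei.

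The data went against the label for the remaining 2 subsets. A group of 26 nuclei was mural-like (pericytes and smooth muscle of vessels), with Notch3, Abcc9, Atp13a5 and Rgs5 among its 10 leading genes and vitronectin Vtn in all 26. Tbx3os1 had 77 UMIs in them against 34 in the other 137 members. These nuclei met the rule mainly through Slc6a20a (in 24) and Cped1 (in 21) and had no UMI for Bnc2, Eya2 or Slc47a1. Their median sum over the rule was 6 UMIs and over 11 mural markers 23.5. The smooth muscle genes Acta2 and Myh11 were at 0 in all members. The last group, of 11 nuclei, was led by neuronal genes such as Csmd1, Nrxn3, Opcml and Meg3, and its median nucleus held 12351 UMIs. It also held rule genes, with Bnc2 in 8 nuclei, Cped1 and Eya2 in 7 each. Whether these nuclei were droplets holding more than 1 nucleus was not tested beyond Scrublet, which marked none.

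Over all nuclei that passed a filter of 3 median absolute deviations on genes per nucleus (13671 nuclei, 6 members removed), clustering found 14 clusters. One cluster of 129 nuclei contained 128 members. A second, of 46 nuclei, which had the most mural UMIs, contained 21 members, and 8 lay elsewhere. Of the markers of other cell types that the covering of the brain can hold, the endothelial genes Cldn5, Ly6c1 and Mecom, the choroid plexus and ependymal genes Ttr, Folr1, Otx2 and Foxj1, and the border macrophage genes Mrc1, Lyve1, Ms4a7 and Pf4 were at 0 in all members. Others were present: the efflux pump Abcb1a of the endothelial list had a UMI in 34 members, 28 of them among the 46 of the Slc47a1 and Bnc2 subset, the endothelial receptor Flt1 had 44 UMIs in 28 members, and Kl of the choroid plexus list had 20 in 15. By a log2 ratio over 1 in every animal, 1 of 8 endothelial, 1 of 6 choroid plexus and ependymal, 6 of 11 mural and 0 of 6 border macrophage markers lay above the other classes. The 8 endothelial markers summed to 136 to 271 CPM per animal. The 11 mural markers summed to 1581, 1594, 2813 and 1046 CPM in KO 60, KO 73, control 64 and control 65, highest in control 64. The clustered protocadherin genes (58 rows, 1085 UMIs in all nuclei) had 0 UMIs in members.

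The subsets were not spread evenly over the animals, and the uneven ones were not the same within a genotype. The subset led by Cemip and Slc7a11 gave 11 of 43 members in KO 60, 20 of 40 in KO 73, 17 of 38 in control 64 and 8 of 42 in control 65. The Slc47a1 and Bnc2 subset gave 18, 9, 5 and 14 members in the same order. KO 73 and control 64 were thus rich in the former and KO 60 and control 65 in the latter, and the genotypes overlapped for both. The Nnat subset gave 5, 5, 3 and 11 members, the mural-like nuclei 7, 4, 10 and 5, and the nuclei with neuronal genes 2, 2, 3 and 4. The last gave 17.3% and 18.1% of the member UMIs in the KO animals but 33.9% and 27.4% in the controls, so that their part of the sums was larger in both controls.

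**Figure D3:**
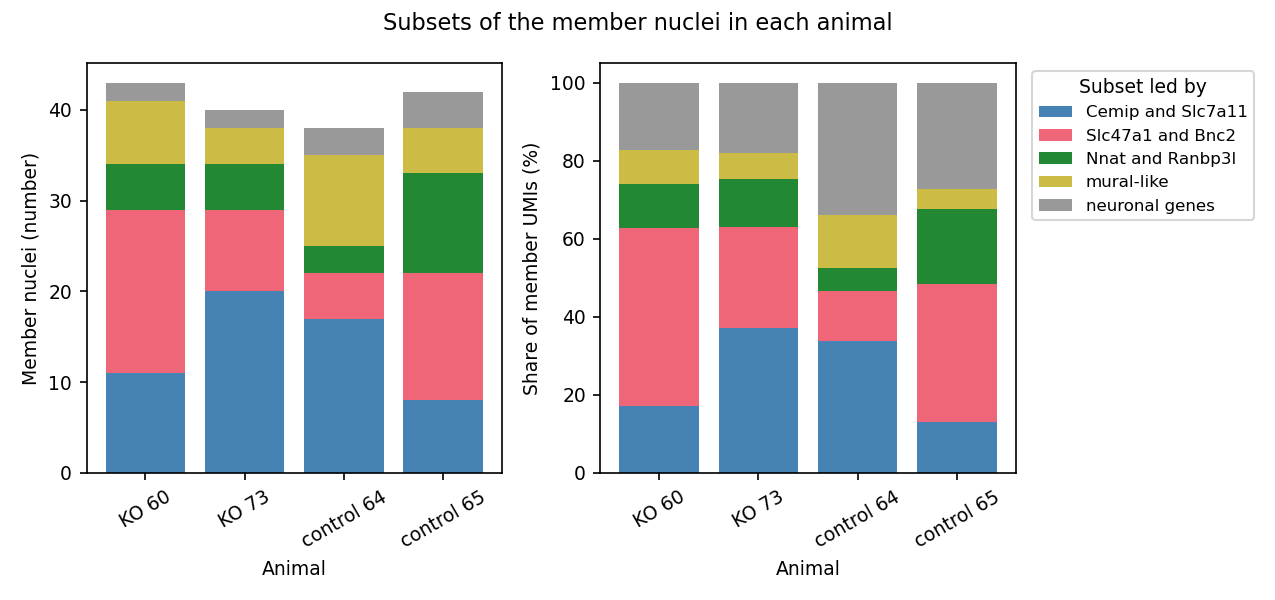
Number of member nuclei of each animal in the 5 subsets (left) and the share of the animal's member UMIs they gave, in % (right). The Cemip and Slc7a11 subset is large in KO 73 and control 64, and the grey part with neuronal genes gives 17.3 and 18.1% of UMIs in the KO animals and 33.9 and 27.4% in the controls.

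The knockout was compared with the control in the members by summing UMIs per animal and testing 3407 genes with edgeR's quasi-likelihood test. No gene passed an adjusted p of 0.05 (0 of 3407, 0%), with a lowest adjusted p of 0.0907, and 263 genes had an unadjusted p under 0.05. DESeq2 called 1 gene (Gm28928, of 15361 tested), edgeR with no filter on low counts 43, and edgeR with all 7 classes in 1 fit, which takes the spread from all classes, 68. The fit over 7 classes had no term for the animal, so it took the 7 sums of a mouse as independent. With 1 animal left out, the lone animal of that genotype assumed to vary like the other genotype, the count was 1 without KO 60, 52 without KO 73, 28 without control 64 and 72 without control 65. In the Cemip and Slc7a11 subset alone 7 of 605 genes were called, and in the Slc47a1 and Bnc2 subset alone 0 of 1007 (28 at an unadjusted p under 0.05). Each library is 1 mouse, so 2 mice a genotype set the spread.

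Trim28 itself could not check the genotype in members. It was sparse there, and by the lineage given above Emx1-Cre need not have acted in them. In members Trim28 had 6 UMIs in KO 60, 5 in KO 73, 1 in control 64 and 4 in control 65 (42.3, 41.3, 7.18 and 21.2 CPM), and it failed the filter on low counts. In excitatory neurons it stood at 5.66 and 6.49 CPM in KO and 7.63 and 7.05 CPM in control. The UMIs need not come from the floxed part of the gene, which is not given in the sources used here. In bulk RNA-seq of cortex from the same animal numbers, described below, Trim28 was lower in every KO animal.

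The 10 genes of lowest p were Pak7, Gm28928, Cdh18, A830018L16Rik, Pcsk2, Dpp4, Grm8, Cadps, Cttnbp2 and Csmd2, none past the test. Except for Dpp4, all had lower values in both KO animals, and between 78.0% and 96.2% of their member UMIs came from the 11 nuclei with neuronal genes. Gm28928, for example, had 11 and 10 UMIs in the KO animals and 170 and 106 in the controls (log2 fold change -3.50 ± 0.52 SE, edgeR adjusted p = 0.0907, from 3.98e-10 to 1.0 over the alternatives). Without those 11 nuclei its UMIs were 8, 4, 8 and 28. Pak7, a neuronal kinase, had 4 and 2 UMIs in KO against 30 and 50 in control, and 1, 0, 1 and 10 without those nuclei. Over all 3407 genes a median of 18.5% of the UMIs came from the neuronal nuclei, against 76.8% for the 184 genes lower in KO and 8.33% for the 79 genes higher in KO at an unadjusted p under 0.05. With these nuclei left out, 0 of 2612 genes were called and 98 had an unadjusted p under 0.05. The 11 abundant neuronal transcripts fixed as a list summed to 11064 and 14053 CPM in the KO animals and 22301 and 18881 CPM in the controls, and 8 of them lay below both controls in both KO animals, as did 17.6% of all tested genes.

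**Figure D4:**
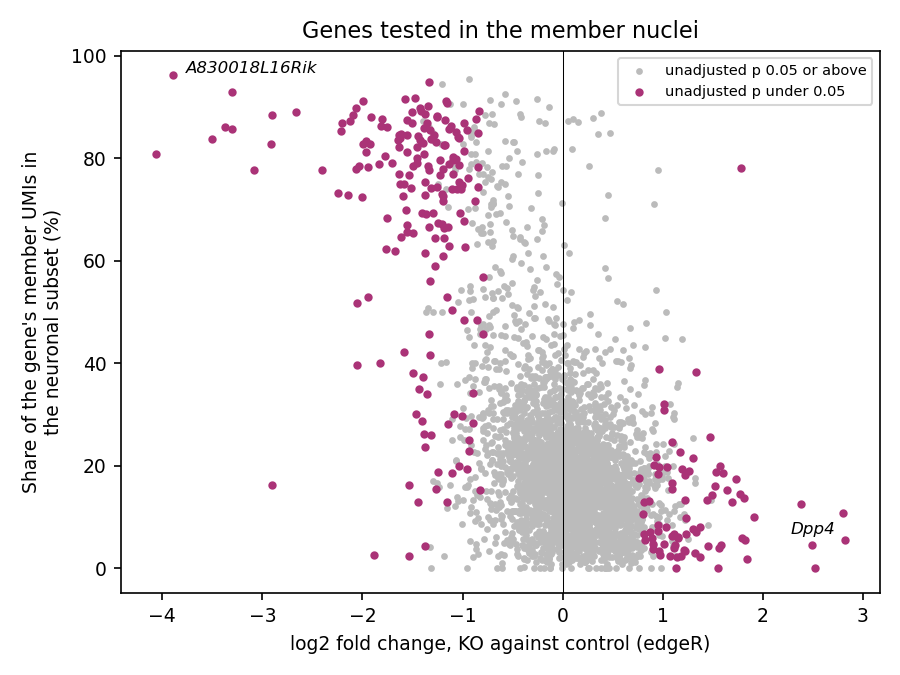
Log2 fold change of KO against control in members (edgeR, horizontal) for each of the 3407 tested genes, against the share of the gene's member UMIs that came from the 11 nuclei with neuronal genes, in % (vertical). Genes at an unadjusted p under 0.05 with lower values in KO lie mostly at high shares (median 76.8%) and those with higher values at low ones (median 8.33%).

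Dpp4, a membrane dipeptidase of fibroblasts and other cells, was the gene of lowest p among those with higher values in KO. It had 26 UMIs in KO 60, 52 in KO 73, 3 in control 64 and 11 in control 65 (log2 fold change 2.82 ± 0.55 SE, edgeR adjusted p = 0.189, from 0.000106 to 1.0 over the alternatives). Both KO animals lay above both controls, as for 607 of the 3407 tested genes (17.8%), and 5.43% of the UMIs came from the nuclei with neuronal genes. Few nuclei carried it: 7, 10, 1 and 4 members, and 1 nucleus held 19 of the 26 UMIs of KO 60. In the Slc47a1 and Bnc2 subset it had 21 UMIs in 18 nuclei, 50 in 9, 3 in 5 and 0 in 14.

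None of the listed fibroblast genes passed the test between genotypes (0 called at an adjusted p of 0.05 by edgeR). The 5 genes of the rule chose the members, so their log2 fold changes are given as a description with no test, 0.43 for Bnc2, 0.13 for Cped1, 0.31 for Slc6a20a, 0.82 for Slc6a13 and 0.56 for Eya2. Slc47a1 had a log2 fold change of 0.01. The list of transporters described next includes the rule genes Slc6a20a and Slc6a13, and that of transcription factors Bnc2 and Eya2. These genes enter the counts and medians of the 2 lists, and Slc6a13 was 1 of the 2 transporters above both controls. The lists were also chosen with earlier results of these data known, so their counts and medians are a description. Among 12 transporters tested, 2 lay above both controls in both KO animals and 0 below, where 17.8% and 17.6% of all tested genes did. Among 16 transcription factors 2 lay above and 1 below, among 13 collagens and laminins 0 and 2, among 7 matrix glycoproteins 1 and 0, among 10 secreted signals 4 and 0, among 8 receptors 3 and 0, and among 3 retinoid genes 0 and 0. The list medians of the log2 fold change were 0.35 for transporters, 0.22 for transcription factors, 0.04 for collagens and laminins, 0.30 for matrix glycoproteins, 0.36 for secreted signals, 0.32 for receptors and 0.19 for retinoid genes, beside 0.03 over all tested genes. All these values include the 11 nuclei with neuronal genes, with 17.3% and 18.1% of the member UMIs in KO and 33.9% and 27.4% in control. A larger neuronal part lowers the CPM of other genes. Its part in these counts and medians was not tested. In the gene values of the next paragraph it was not tested beyond the fit without the neuronal nuclei, which called 0 of 2612 genes.

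The list genes outside the rule at an unadjusted p under 0.05, picked out here after their values were seen, did not pass the test either. Fn1 stood at 529 and 388 CPM in KO and 194 and 218 CPM in control (log2 fold change 1.14, edgeR adjusted p = 0.327). Prrx1, a mesenchymal homeobox factor, stood at 381 and 206 CPM against 93.3 and 101 CPM (1.58, adjusted p = 0.255 by edgeR), and Ebf2 at 35.3 and 33.0 CPM against 122 and 79.6 CPM (-1.53, adjusted p = 0.492 by edgeR). The coactivator Eya1, Bmp4 and the chemokine Cxcl12 also lay above both controls, with log2 fold changes of 0.90, 1.11 and 1.13 and edgeR adjusted p of 0.544, 0.572 and 0.611. For these genes the KO and control values did not overlap, as for 17.8% (above) and 17.6% (below) of all genes tested.

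Genes of response to injury or of derepression were mostly too low to test. Of 31 interferon response genes in the files 1 passed the filter, Ifi27, at 162 and 116 CPM in KO and 57.4 and 37.2 CPM in control (log2 fold change 1.56, edgeR adjusted p = 0.338). Of the inflammation list 3 genes were tested and of the fibroblast activation list 6, with 1 above and 0 below both controls in the former and 1 and 2 in the latter. Of the imprinted list 9 were tested, 0 above and 1 below; Meg3 stood at 2209, 2898, 4477 and 2505 CPM, with 1465 of its UMIs in the 11 nuclei with neuronal genes and 295 in the other 152, and Nnat followed the Nnat subset, with 21, 77, 25 and 211 UMIs. The mural list had 5 tested genes (0 above, 1 below) and the endothelial list 2 (0 and 0). None of the immediate early, choroid plexus, border macrophage or protocadherin genes passed the filter on low counts. Among sex-linked genes Xist passed it and did not lie on 1 side of the controls.

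The effect of the knockout was then compared between members and other classes of the same animals, with the animal as a block. Against 2329 excitatory neurons, in which Emx1-Cre acts, the effect differed for 45 of 13871 genes (0.324%; 22 with a higher and 23 with a lower change in members). With the 11 neuronal nuclei left out 18 genes were called, 13 of them shared with the first call, and without control 64 the count was 9. Against 1117 astrocytes it differed for 1 of 9731 genes (0.0103%) and, without the neuronal nuclei, for 18. It was 11 to 22 with each animal left out in turn, 21 without KO 60, 17 without KO 73, 11 without control 64 and 22 without control 65. Against 716 microglia, which do not derive from the Emx1 lineage, it differed for 1 of 7233 genes (0.0138%), Galntl6, and for 0 without the neuronal nuclei (252 at an unadjusted p under 0.05). In that comparison too single animals moved the count, to 3 without KO 60, 10 without KO 73, 4 without control 64 and 56 without control 65. The genes described next were singled out after their values were seen.

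The KO and control values of the predicted gene Gm26624 lay apart in several classes but overlapped in the members. In excitatory neurons it had 1152 UMIs in KO 60, 886 in KO 73, 147 in control 64 and 163 in control 65, and in astrocytes it stood at 141, 122, 14.4 and 10.7 CPM. Members gave 106, 82.6, 64.6 and 122 CPM, from 15, 10, 9 and 23 UMIs, so the control values lay on both sides of those of the KO animals. In microglia both KO animals lay below both controls, at 80.1 and 79.9 CPM against 120 and 95.4 CPM. The effect in members minus that in excitatory neurons was -2.21 ± 0.49 SE on the log2 scale (edgeR adjusted p = 0.00766, from 0.00766 to 0.639 over the alternatives), and the call was lost with any 1 of the 4 animals left out. Against astrocytes the difference was -3.34 (edgeR adjusted p = 0.0886), and 0.00157 without the neuronal nuclei.

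Unc13c, a synaptic vesicle priming protein, was the gene whose effect differed from that in astrocytes. Astrocytes had 8.23 and 3.06 CPM in the KO animals and 594 and 596 CPM in the controls. In members the values were 219 and 281 CPM in KO and 452 and 186 CPM in control, so that they overlapped. The difference of the effects was 6.42 ± 0.61 SE (log2, edgeR adjusted p = 0.000728), and all 8 alternatives called it too, with an adjusted p from 3.08e-29 to 0.000728. The values were also apart in excitatory neurons, at 10.0 and 6.49 CPM in KO against 18.7 and 13.3 CPM in control, and in inhibitory neurons, at 84.4 and 83.1 against 104 and 138 CPM. OPCs overlapped, at 825 and 599 CPM against 717 and 762 CPM.

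**Figure D5:**
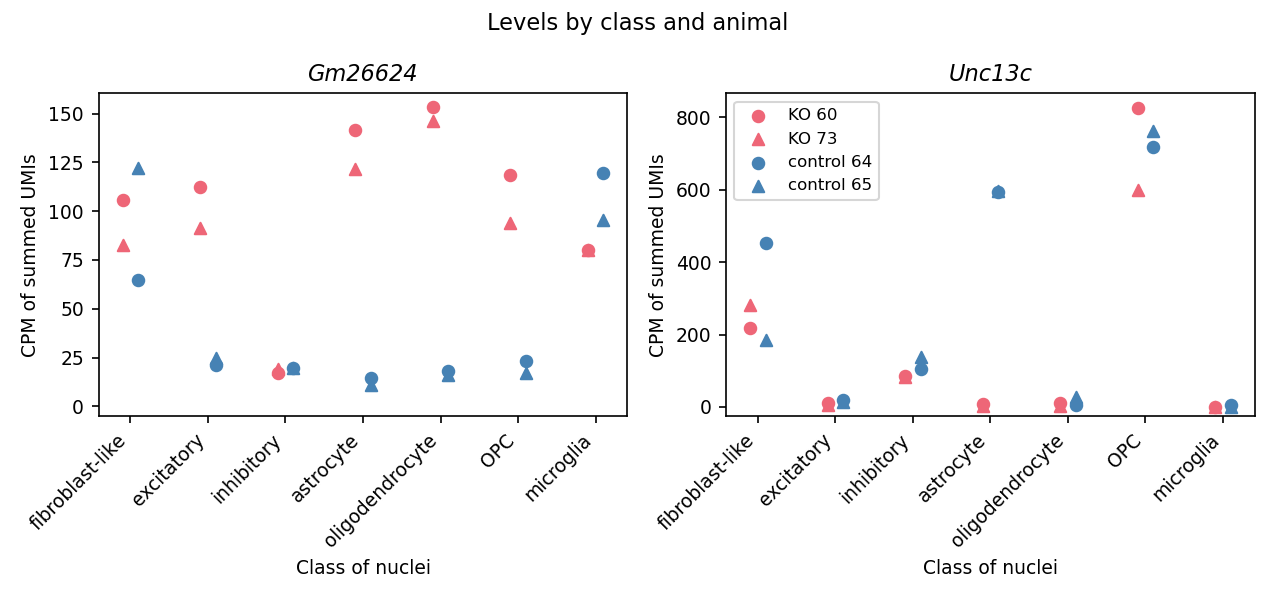
CPM of summed UMIs of Gm26624 (left) and Unc13c (right) in the members and the 6 other classes, with 1 point for each animal. KO and control points of Gm26624 are apart in excitatory neurons, astrocytes, oligodendrocytes and OPCs and overlap in the fibroblast-like nuclei; those of Unc13c are apart in astrocytes (8.23 and 3.06 against 594 and 596 CPM) and, by less, in excitatory and inhibitory neurons.

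The same genes were read in bulk RNA-seq of cortex from 6 animals of this cross, KO 60, 73 and 76 and control 64, 65 and 77, a measurement that the rule did not use. The gene lists, however, were chosen with earlier results of these data known. In bulk tissue fewer cells of a type and less RNA per cell cannot be told apart. Neither can be told apart from a different amount of meninges left on each cortex at dissection, which was not measured. Trim28 had 107, 165 and 112 reads in the KO animals and 575, 349 and 482 in the controls (log2 fold change -1.39 ± 0.15 SE, edgeR adjusted p = 0.000378). Over all genes, 216 of 16271 (1.33%) passed an adjusted p of 0.05 and a log2 fold change beyond 0.5, 140 higher and 76 lower in KO. The count was 344 without KO 76, 111 without control 64, 133 without control 65 and 104 without control 77.

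Several genes of the fibroblast lists were lower in the bulk KO cortex, while none was called in the nuclei. The difference between the 2 assays was not tested, nor how much of a gene's bulk RNA came from cells like the members. The summed level of Bnc2, Slc6a20a, Slc6a13, Cped1 and Slc47a1 was 7.28, 11.5 and 6.99 CPM in KO 60, 73 and 76 and 23.5, 17.4 and 16.8 CPM in control 64, 65 and 77. Slc47a1 had 1, 8 and 4 reads against 83, 40 and 28 (log2 fold change -3.02 ± 0.50 SE, edgeR adjusted p = 0.00828, from 1.19e-13 to 0.0559 over the alternatives and 0.0559 without control 64). All 3 KO values lay below all 3 control values. Animal 60 thus gave 1 bulk read of Slc47a1 but 176 UMIs in its member nuclei, while control 64 gave 83 reads and 36 UMIs; the bulk RNA and the nuclei were separate preparations, and the part of this in the result was not tested. Slc6a20a had 51, 108 and 55 reads against 269, 126 and 173 (-0.92, edgeR adjusted p = 0.0791), and Slc6a13 had 29, 51 and 28 against 154, 78 and 78 (-1.04, edgeR adjusted p = 0.0584), neither past the test. Over the alternatives their adjusted p ran from 9.86e-06 to 0.375 and from 4.80e-05 to 0.348. DESeq2 called both (adjusted p of 0.0150 and 0.0373), as did edgeR with no filter on low counts and without KO 76, and edgeR without KO 73 called Slc6a20a.

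In the lists, 4 of 15 transporters tested (Slc47a1 among them), 1 of 23 collagens and laminins, 1 of 15 secreted signals, 1 of 11 receptors and 2 of 13 retinoid genes fell in bulk, and 0 of 21 transcription factors and 0 of 20 matrix glycoproteins, where 0.467% of all genes tested did. None of the listed genes passed the test with higher values in KO. Because of how the lists were chosen, their shares and medians in bulk are a description and not independent support. At an unadjusted p under 0.05 by edgeR in either direction were 7 of the 21 transcription factors and 12 of the 20 matrix glycoproteins, beside 1488 of all 16271 genes tested. The other transporters were Slc26a7 (log2 fold change -2.32, edgeR adjusted p = 0.0288), Slc22a6 (-1.59, adjusted p = 0.0208) and the lipid transporter Abca8a (-1.25, adjusted p = 0.00238), which alone of the listed genes passed the test under all 10 alternatives. The others were Col1a2 (-1.08, edgeR adjusted p = 0.0244), the growth factor binding protein Igfbp4 (-0.60, adjusted p = 0.00977), the interleukin-1 receptor Il1r1 (-0.98, adjusted p = 0.0186), Aldh1a1 (-0.95, adjusted p = 0.0362) and Aldh1a2 (-1.28, adjusted p = 0.0470). Each of these 7 failed an adjusted p of 0.05 in edgeR under at least 1 alternative, with a highest value from 0.0905 for Igfbp4 to 0.313 for Aldh1a2. Median log2 fold changes were -0.52 over 15 transporters, -0.45 over 21 transcription factors, -0.34 over 23 collagens and laminins, -0.63 over 20 matrix glycoproteins, -0.41 over 15 secreted signals, -0.23 over 11 receptors and -0.14 over 13 retinoid genes, beside 0.01 over all genes tested. In the nuclei, Col1a2 stood at 191 and 289 CPM in KO and 165 and 255 CPM in control, and Aldh1a2 at 106 and 190 against 144 and 112 CPM. In those 4 libraries both genes overlapped between the genotypes. Not every listed gene marked the members. By a log2 ratio over 1 in every animal, 10 of 17 transporters, 11 of 25 collagens and laminins and 9 of 17 secreted signals lay above the other classes of nuclei. The same held for 1 of 12 receptors and 4 of 15 retinoid genes.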

How the data were processed

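The authors aligned the 10x libraries and deposited UMI counts per gene and nucleus (Cell Ranger 3.0.0 per the file headers). For bulk cortex they deposited gene read counts made with STAR 2.6.0 and featureCounts 1.6.3 on GRCm38.p6 with GENCODE M19, each read assigned by strand. The methods describe a pre-mRNA reference for nuclei and the use of uniquely mapped, same-strand exonic reads alone; with such a reference introns can count as exons, and which of these the deposited counts follow was not tested. The deposited columns were used as they are, with 0 columns left without a sample.

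Members and gene lists were chosen with earlier results of these data known. UMIs were summed per animal and class and tested with edgeR 4.0.16 (R 4.3.3; filterByExpr, TMM, quasi-likelihood, Benjamini-Hochberg adjustment over all genes tested); an interaction term with the animal as a block compared classes. Alternatives were DESeq2 1.42.0, other size factors, no filter, other thresholds, Seurat 5.3.0 clusters, Scrublet (scanpy 1.11.5), thinning and leaving out each animal. The fits were tested on simulated counts. Members held 121117 to 188392 UMIs per animal, and bulk libraries 16748967 to 25345083 assigned reads. Named genes were those of the rule, the 20 leading identity genes, the 10 of lowest p, Trim28 and members of the lists.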

Additional observations from a re-analysis of the deposited data

Results flagged for a closer look

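The effect of the knockout differed between the fibroblast-like nuclei and other classes by the interaction test (edgeR, animal as a block, adjusted p under 0.05): for 45 genes against excitatory neurons, 1 against astrocytes and 1 against microglia. Against excitatory neurons, 13 of the 45 were also called with the 11 nuclei carrying neuronal genes left out. Of these, 11 had a higher change in the members, as the log2 effect in members minus that in neurons: Ntn1 (4.75), Adgrg6 (4.08), Dpp4 (3.38), Ctgf (3.09), Atp10a (2.72), Rnf152 (2.64), Svil (2.60), Trabd2b (1.92), Arhgap29 (1.70), Sulf1 (1.68) and Wls (1.54). The other 2 had a lower one, Gpc5 (-3.35) and Gm26624 (-2.21).

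For several of the 13 the values in the members or the neurons rest on few UMIs or nuclei. Gpc5 had 4, 3, 44 and 17 UMIs in KO 60, KO 73, control 64 and control 65, and 1 nucleus held 42 of the 44. Adgrg6 had 13, 11, 2 and 2. Ntn1, with the largest difference, had 28, 18, 6 and 17 UMIs in members. In excitatory neurons it had only 3, 1, 18 and 15 (0.293, 0.103, 2.59 and 2.30 CPM). For Ctgf, a matricellular protein, the members stood at 84.7 and 74.3 CPM in KO and 93.3 and 106 CPM in control, while excitatory neurons stood at 2.44 and 0.309 CPM in KO and 18.1 and 12.0 CPM in control. Svil, an actin-binding protein, was likewise even in the members (339, 471, 330 and 409 CPM) and stood at 2.05 and 1.54 against 10.1 and 11.3 CPM in the neurons. Svil passed an adjusted p of 0.05 in edgeR under all 8 alternatives, with a highest value of 0.0199. Each of the other 12 lost the call under at least 1 alternative (30 of 104 values over the 13 genes), with a highest adjusted p in edgeR from 0.111 for Ntn1 to 0.868 for Rnf152. Leaving out any 1 of the 4 animals lost it for Atp10a (0.0566 to 0.195), and for Ntn1 it was lost without KO 60, KO 73 or control 64.

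Against astrocytes the gene was Unc13c (6.42), and against microglia Galntl6 (3.25). Galntl6 had 38, 49, 10 and 22 UMIs in members, and 3, 6, 7 and 10 without the nuclei carrying neuronal genes, with a difference of 0.67 and an edgeR adjusted p of 1.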

How the results depend on the processing

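No paired analysis was possible because the animal numbers name single mice and no KO animal shares a number with a control; the block by animal was used only between classes of the same animals. Alternatives that redefined the members by subsets, by mural or neuronal nuclei, by thinning or, for the class comparisons, by Seurat clusters were chosen after seeing the data. For KO against control in members, where 0 genes were called, no filter on low counts gave 43, DESeq2 1, 1 fit over 7 classes 68, the Cemip and Slc7a11 subset alone 7, and leaving out 1 animal 1 to 72; the other 12 gave 0. For the difference from excitatory neurons (45 genes), leaving out the neuronal nuclei gave 18, members by Seurat cluster 14 and leaving out 1 animal 9 to 43. From astrocytes (1 gene) no filter gave 36, no neuronal nuclei 18, Seurat clusters 4 and leaving out 1 animal 11 to 22. From microglia (1 gene) no filter gave 7, no neuronal nuclei 0, Seurat clusters 0 and leaving out 1 animal 3 to 56. In bulk cortex (216 genes) no filter gave 546 and leaving out 1 animal 104 to 344. The share of members in KO minus control (-0.132 percentage points) turned to 0.0259 without the nuclei with 3 or more mural UMIs. The cause of these changes was not tested, except that fewer nuclei or animals entered where some were left out. For the 10 named genes of members, 107 of 154 alternative values kept their side of the threshold, 47 came to pass it and 0 changed direction. Among these values the alternative without the neuronal nuclei is present for Dpp4 alone. The other named genes fell under the filter on low counts there, so their direction without those nuclei was not fitted. Pcsk2, for example, then had 9 and 4 UMIs in KO 60 and KO 73 and 2 and 10 in control 64 and control 65. At 38 to 43 nuclei an animal, 3407 genes passed the filter on low counts in members, and genes under it had no value in the reported comparison.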
